A study of Mus musculus with 8 samples.

Results

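The genes described here make and use cyclic GMP (cGMP) downstream of nitric oxide: the soluble guanylate cyclase subunits Gucy1a1, Gucy1b1 and Gucy1a2, the cGMP-dependent protein kinases Prkg1 and Prkg2, the phosphodiesterases Pde5a and Pde2a, and the nitric oxide synthases Nos1 and Nos2. These 9 genes were taken by name with their difference between HSC-enriched and Lin+ cells already known, so that difference is given as a description and was not tested for them. All 9 were measured among 24011 named genes.

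RNA came from sorted bone marrow cells of adult C57Bl6 mice with no stated genetic change or treatment. The Lin+ group (4 arrays) holds cells with surface markers of mature blood lineages. The HSC-enriched group (4 arrays) was sorted to enrich haematopoietic stem cells (HSCs) and is labelled LSK (lineage-negative, Sca-1-positive, Kit-positive), CD105-positive and CD48-negative, although the design text of the series gives CD150 in place of CD105. The labels do not say that the arrays came from separate animals, so errors and p-values measure the spread between these samples only, which may be technical.

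Soluble guanylate cyclase is a heterodimer of an alpha and a beta subunit. Its beta subunit carries a haem group that binds nitric oxide, and the bound enzyme turns GTP into cGMP. The messenger then activates the cGMP-dependent kinases, opens cyclic-nucleotide-gated channels or alters phosphodiesterases, and phosphodiesterases end the signal. The pathway is best known for relaxing vascular smooth muscle and restraining platelets, and nitric oxide made under blood flow is known to promote the emergence of HSCs in the embryo.

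Gucy1b1 and Gucy1a1 are neighbouring genes on mouse chromosome 3, with no other protein-coding gene between them in RefSeq. Both were higher in HSC-enriched cells, as was Prkg1 on chromosome 19, and the sequences before their starts are shown for that reason. They come from RefSeq (GRCm38.p6), whose promoter table held 7 of the 9 genes in 13 windows. The build behind the deposited values is not given in the sources used here. Capitals mark matches, on either strand, to 6 motifs, all but the first those of transcription factor families common in blood cells. These are the CCAAT box, the GATA factor motif AGATAA, the RUNX motif TGTGGT, the ETS motif CGGAAG, the MEIS motif TGACAG and the E-box CAGCTG. The stretch for Gucy1b1 is the 250 bases before its start, chr3:82074712-82074961, minus strand, written 5′ to 3′.
Gucy1b1: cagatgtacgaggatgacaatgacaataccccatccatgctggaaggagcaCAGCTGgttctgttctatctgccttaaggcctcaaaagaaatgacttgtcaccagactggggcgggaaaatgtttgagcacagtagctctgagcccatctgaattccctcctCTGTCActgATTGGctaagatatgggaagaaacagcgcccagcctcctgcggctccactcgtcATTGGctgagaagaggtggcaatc
For Gucy1a1 and Prkg1 a stretch of 30 bases holding the matches is shown, at chr3:82145651-82145680 and chr19:31765062-31765091, both minus strand. RefSeq has a start further upstream for each, by 296 bases for Gucy1a1 and 235 bases for Prkg1, so these stretches may lie within a longer transcript.
Gucy1a1: cgcatcatggtgggttcgctCAGCTGtttg
Prkg1: ctaATTGGtttctcaatgaaAGATAAtcac

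The window of Gucy1b1 held the CCAAT box at 78 and at 24 bases before the start, the MEIS motif at 87 and the E-box at 199, none of which overlap. RefSeq gives 2 windows each for Gucy1a1 and Prkg1. The one shown for Gucy1a1 held the E-box alone, at 10 bases before the start, and the one shown for Prkg1 held the CCAAT box at 55 bases and the GATA motif at 38. Neither of their other windows, at starts further downstream, held any of the 6 motifs. Among 32851 RefSeq windows of the same length, 33.8% held a CCAAT box, 15.9% the MEIS, 13.0% the E-box and 9.99% the GATA motif. The RUNX and ETS motifs, held by 14.0% and 13.6%, were not found in the 3 windows shown. A match is a description of the letters and says nothing of binding.

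Levels are log2 values as deposited, so a difference of 1 is 2-fold. No detection calls come with them. As a rough guide to background, 95% of the values of 1074 olfactory receptor genes lay at or under 5.10. Levels of different genes are not compared, because each rests on its own probes.

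The alpha subunit gene Gucy1a1 had the largest difference of the 9. It stood at 8.83, 8.22, 8.66 and 8.26 on HSC-enriched replicates 1 to 4 and at 3.96, 4.63, 4.51 and 3.87 on Lin+ replicates 1 to 4. Every HSC-enriched array was high, every Lin+ array was under the background guide, and 3.59 log2 units separated the nearest arrays of the groups. The means were 8.49 ± 0.30 and 4.24 ± 0.38 (SD, n = 4), a difference of 4.25 or 19.0-fold, the 8th highest of all 24011 genes. With Lin+ cells at background, the fold depends on where background lies.

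Gucy1b1, the haem-binding beta subunit that the enzyme needs for activity, had a smaller difference. Its levels were 5.98, 5.12, 5.46 and 5.23 in HSC-enriched cells against 4.34, 4.17, 4.41 and 4.60 in Lin+ cells. The groups did not overlap, but their nearest arrays were 0.52 apart while the HSC-enriched arrays alone spanned 0.86. HSC-enriched replicate 1 was the highest, and replicate 2 lay only just above the background guide. The means were 5.45 ± 0.38 and 4.38 ± 0.18, a difference of 1.07 or 2.10-fold, and with all 4 Lin+ arrays under the guide this fold too depends on where background lies. The standard deviation in HSC-enriched cells was larger than that of 90.2% of all genes.

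The other alpha subunit gene, Gucy1a2, was under the background guide on all 8 arrays. Its levels were 4.35, 4.76, 4.56 and 4.64 in HSC-enriched cells and 3.97, 4.15, 3.97 and 4.23 in Lin+ cells. The HSC-enriched arrays were the higher ones by a gap of 0.11 at the closest, and the difference of the means was 0.50. Of the alpha subunit genes, Gucy1a1 alone was above the guide in HSC-enriched cells.

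**Figure D1:**
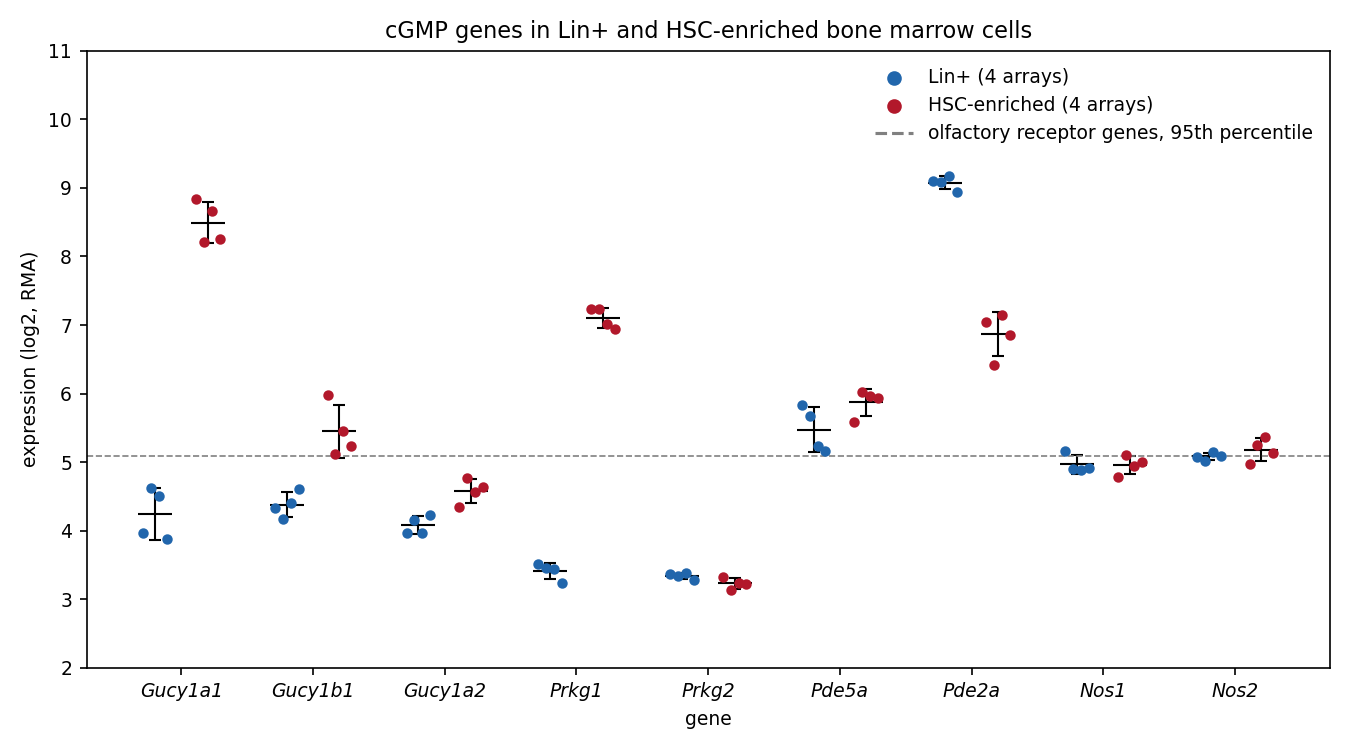
Expression (log2, vertical axis) of the 9 cGMP genes (horizontal axis) on each Lin+ array (blue, n = 4) and HSC-enriched array (red, n = 4), with bars for the mean ± SD and a dashed line at the background guide of 5.10. Gucy1a1, Gucy1b1 and Prkg1 stand above the line in HSC-enriched cells only, Pde2a is lower in HSC-enriched cells, and Prkg2, Gucy1a2, Nos1 and Nos2 stay near or under the line in both groups.

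Among the kinases, Prkg1 was high in HSC-enriched cells and Prkg2 in neither group. Prkg1, which encodes the main cGMP-dependent kinase of smooth muscle and platelets, stood at 7.23, 7.24, 7.02 and 6.95 in HSC-enriched cells and at 3.51, 3.46, 3.44 and 3.24 in Lin+ cells. The arrays within each group lay close together and the groups were 3.44 apart at the nearest. The means were 7.11 ± 0.15 and 3.41 ± 0.12, a difference of 3.69 or 12.9-fold, the 22nd highest of all genes. All 4 Lin+ values were under the background guide, which limits this fold as it does for Gucy1a1.

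Prkg2 encodes the membrane-bound kinase known from gut and bone. It was at 3.33, 3.14, 3.23 and 3.22 in HSC-enriched cells and at 3.37, 3.34, 3.38 and 3.28 in Lin+ cells. All 8 values were under the background guide and the groups overlapped, with a difference of -0.11.

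The phosphodiesterases differed from each other. Pde2a encodes an enzyme that cGMP itself stimulates and that degrades both cGMP and cAMP. It was at 7.04, 6.42, 7.15 and 6.86 in HSC-enriched cells and at 9.10, 9.08, 9.18 and 8.94 in Lin+ cells. Here the Lin+ arrays were the high ones, tightly grouped, and 1.79 separated the nearest arrays of the groups. The means were 6.87 ± 0.32 and 9.08 ± 0.10, 4.62-fold higher in Lin+ cells, and all 8 arrays were above the background guide. Pde2a thus had a level above the guide in both populations, and was the only one of the 9 genes lower in HSC-enriched cells without overlap.

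Pde5a, the cGMP-specific enzyme that sildenafil inhibits, was at 5.59, 6.02, 5.97 and 5.93 in HSC-enriched cells and at 5.83, 5.67, 5.24 and 5.16 in Lin+ cells. HSC-enriched replicate 1 lay below Lin+ replicates 1 and 2, so the groups overlapped. The difference was 0.40, with means of 5.88 ± 0.20 and 5.47 ± 0.33. All 8 arrays were above the background guide.

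The nitric oxide synthase genes lay near the background guide in both populations. Nos1, the neuronal enzyme, was at 4.78, 5.10, 4.94 and 5.00 in HSC-enriched cells and at 5.17, 4.90, 4.89 and 4.91 in Lin+ cells, a difference of -0.01. Nos2, the inducible enzyme of activated macrophages, was at 4.97, 5.25, 5.37 and 5.13 in HSC-enriched cells and at 5.08, 5.02, 5.15 and 5.09 in Lin+ cells, a difference of 0.10. Nos2 was above the guide on 3 HSC-enriched arrays and 1 Lin+ array, and Nos1 on 1 array of each group. The groups overlapped for both genes, and no array was more than 0.28 above the guide.

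Over the 9 genes, the groups did not overlap for 5, of which Pde2a had its higher values in Lin+ cells and the other 4 in HSC-enriched cells. Among all genes tested 28.9% did not overlap (15.9% higher and 13.0% lower in HSC-enriched cells), and since the 9 were chosen on this contrast nothing is read from the comparison. Their median difference was 0.40, against 0.02 over all genes.

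The other genes of the pathway were taken from 5 lists of 96 measured genes and tested with limma, with p-values adjusted by Benjamini-Hochberg over all 24011 genes. At an adjusted p under 0.05, 20 of the 96 (20.8%) were higher in HSC-enriched cells, where 15.5% of all genes were, and 10 (10.4%) were lower, where 12.4% of all genes were. Whether these shares differ from those of all genes was not tested, and the median difference of the 96 was 0.04. For 33 of the 96 no array was above the background guide.

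Of the other cGMP sources, the natriuretic peptide receptor gene Npr2 was higher. It encodes a membrane receptor for C-type natriuretic peptide with a guanylate cyclase of its own. Npr2 was at 6.75, 6.25, 6.45 and 6.62 in HSC-enriched cells and at 5.04, 4.15, 4.61 and 4.44 in Lin+ cells. Every Lin+ array was under the background guide and every HSC-enriched array above it. The means were 6.52 ± 0.22 and 4.56 ± 0.37, a difference of 1.96 ± 0.19 (standard error; limma adjusted p = 2.5e-05). The only other gene of the 15 on this list to pass was Guca1a, a calcium-binding activator of guanylate cyclase known from photoreceptors, at 7.02 ± 0.19 against 5.56 ± 0.07 (limma adjusted p = 7.1e-06). Nppc, which encodes the ligand of Npr2, differed by 0.06 and Guca2a by -0.31, neither passing. In this list 2 of 15 genes (13.3%) were higher and 0 lower, where 15.5% and 12.4% of all genes were. Its median was 0.02.

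In the list on nitric oxide synthesis and supply, 8 of 23 genes (34.8%) were higher and 2 (8.70%) lower, where 15.5% and 12.4% of all genes were, a difference in shares that was not tested. Spr, which catalyses the last step in the synthesis of tetrahydrobiopterin, the cofactor that nitric oxide synthases need, was 7.79, 7.87, 7.66 and 7.96 in HSC-enriched cells and 6.40, 6.56, 6.70 and 6.78 in Lin+ cells. The difference was 1.21 ± 0.12 (standard error; limma adjusted p = 2.9e-05), with no overlap. Qdpr, which recycles the cofactor, was higher by 1.06 ± 0.16 (limma adjusted p = 0.00063), and Gchfr, which encodes the feedback regulator of its first enzyme, by 1.30 ± 0.18 (limma adjusted p = 0.00031). The first enzyme itself, Gch1, was at 7.19 ± 0.37 against 6.99 ± 0.52 and did not pass. The cofactor also serves other hydroxylases.

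In the same list Arg2, a mitochondrial arginase that consumes the substrate of nitric oxide synthases, was the gene with the largest fall. It was at 5.52, 5.62, 5.78 and 6.29 in HSC-enriched cells and at 7.53, 8.07, 7.94 and 7.95 in Lin+ cells. The groups were 1.25 apart at the nearest, and the difference was -2.07 ± 0.18 (standard error; limma adjusted p = 1.3e-05). Nostrin, a trafficking factor of endothelial nitric oxide synthase, passed as lower by a difference of -0.61 (limma adjusted p = 0.015), but all its values were under the background guide. Without HSC-enriched replicates 3 and 4 its adjusted p was 0.069. Ddah2 (0.58, limma adjusted p = 0.068) did not pass, though it did in 4 alternatives (adjusted p = 0.0043 to 0.046). Nos3, the endothelial synthase and named here because it completes the synthase family, was at 4.46 ± 0.24 against 4.53 ± 0.19, under the guide in both groups. The median of the list was 0.17.

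Of 14 genes on the list of other cGMP phosphodiesterases, 2 (14.3%) were higher and 1 (7.14%) lower. Over all genes 15.5% were higher and 12.4% lower, and the shares were not tested against each other. Pde9a, whose product has a high affinity for cGMP, was at 5.40, 5.67, 5.53 and 5.66 in HSC-enriched cells and at 4.66, 4.83, 4.57 and 4.28 in Lin+ cells. The HSC-enriched arrays were above the background guide and the Lin+ arrays under it, with a difference of 0.98 ± 0.13 (standard error; limma adjusted p = 0.00027). Pde6h, a photoreceptor subunit gene, was higher by 0.72 (limma adjusted p = 0.011), with HSC-enriched replicate 1 among the Lin+ values, and its adjusted p was 0.11 without HSC-enriched replicates 3 and 4. Pde3b, an enzyme that cGMP inhibits, was lower by a difference of -0.38 (limma adjusted p = 0.031), a call lost in 8 alternatives (adjusted p = 0.053 to 0.13), among them 5 single arrays left out in turn. Pde1b (0.21) and Pde6d (-0.34) did not pass, though Pde6d did without HSC-enriched replicate 3 (-0.51, limma adjusted p = 0.038).

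Downstream of cGMP, 2 of 20 effector, substrate and exporter genes (10%) were higher and 6 (30%) lower, where 15.5% and 12.4% of all genes were, and this difference in shares was not tested either. Trpc6, a cation channel that the cGMP-dependent kinase phosphorylates, was at 8.66, 8.91, 8.59 and 8.73 in HSC-enriched cells and at 4.53, 4.61, 4.59 and 5.00 in Lin+ cells. Its Lin+ arrays were under the background guide, as those of Gucy1a1 and Prkg1 were, and its difference was 4.04 ± 0.13 (standard error; limma adjusted p = 5.9e-08). Gtf2i, a transcription factor that the kinase binds, was at 9.43 ± 0.16 against 7.78 ± 0.15 (limma adjusted p = 3.9e-06).

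The cytoskeletal substrate genes Vasp and Lasp1 were among the 6 lower ones. Vasp, the classical substrate whose phosphorylation reports kinase activity, was at 8.04, 7.82, 8.09 and 7.61 in HSC-enriched cells and at 8.58, 8.89, 8.85 and 8.62 in Lin+ cells, a difference of -0.84 ± 0.13 (standard error; limma adjusted p = 0.00079). Lasp1, an actin-binding substrate, differed by -0.78 ± 0.11 (limma adjusted p = 0.00041). Lrmp, a relative of the IRAG substrate that is abundant in lymphocytes, had the largest fall of the list, -1.34 ± 0.15 (limma adjusted p = 7.6e-05). Rgs2, a substrate that restrains G protein signalling, differed by 0.35 and just missed the threshold (limma adjusted p = 0.0505), passing in 7 of the alternatives (adjusted p = 0.0017 to 0.049). Hspb6 (0.09) did not pass.

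**Figure D2:**
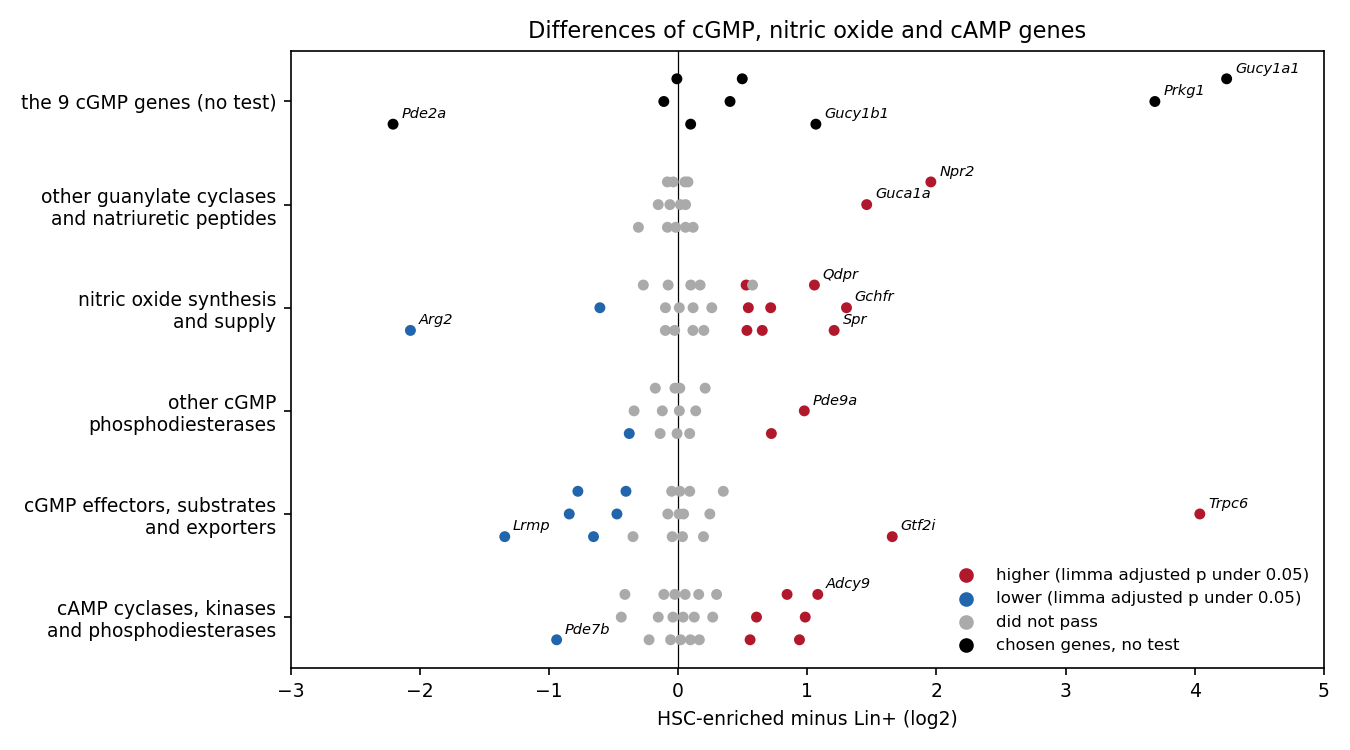
Difference between HSC-enriched and Lin+ means (log2, horizontal axis) for each of the 9 chosen genes (black, not tested) and for the 96 genes of the 5 pathway lists (rows), red or blue where limma's adjusted p was under 0.05. Most listed genes lie near 0, and Trpc6, at 4.04, stands between Prkg1 and Gucy1a1.

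The cAMP branch, whose cyclases and phosphodiesterases are relatives of those above, served for comparison. Of 24 genes 6 (25.0%) were higher and 1 (4.17%) lower, with a median of 0.07. Over all genes 15.5% were higher and 12.4% lower, and this difference in shares was not tested. The cyclase genes Adcy9 and Adcy6 were higher by 1.08 ± 0.15 (limma adjusted p = 0.00027) and 0.94 ± 0.16 (limma adjusted p = 0.0012), and the protein kinase A subunit gene Prkacb by 0.98 ± 0.10 (limma adjusted p = 3.1e-05). Pde7b was lower by a difference of -0.94 (limma adjusted p = 0.035), a call lost when any 1 of 5 arrays was left out (adjusted p = 0.054 to 0.096). Without HSC-enriched replicates 3 and 4 its difference was -1.45 (limma adjusted p = 0.0023). Prkaca (0.27) and Prkar1a (0.16) did not pass. Pde7b was at 4.70, 4.94, 6.04 and 5.62 on HSC-enriched replicates 1 to 4. Replicates 3 and 4 also carried more signal of mature-cell markers, described next. Any part of RNA from mature cells in these Pde7b values was not tested.

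Markers of other cells were compared with the 9 genes array by array, since the sorted cells could hold some. Marker values are means of the deposited log2 values over each list. In a bulk sample, fewer cells of a type and less RNA per cell cannot be told apart. The neutrophil list (10 genes) averaged 7.04, 6.99, 9.77 and 9.50 on HSC-enriched replicates 1 to 4, against 11.86 to 12.10 on Lin+ arrays, so replicates 3 and 4 carried more of it. Replicate 3 was also the highest HSC-enriched array for the B cell (6.54), erythroid (6.00), monocyte and macrophage (6.01) and eosinophil, basophil and mast cell (4.98) lists, each still under every Lin+ array. Without HSC-enriched replicates 3 and 4 the differences were 4.28 for Gucy1a1, 1.17 for Gucy1b1, 3.82 for Prkg1 and -2.34 for Pde2a. With all arrays they were 4.25, 1.07, 3.69 and -2.21. Whether RNA of mature cells had a part in these differences was not tested.

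Among HSC-enriched arrays the endothelial list was highest on replicates 1 and 3. The list (11 genes) averaged 6.79, 6.41, 6.71 and 6.46 on HSC-enriched replicates 1 to 4 and 5.29 to 5.48 on Lin+ arrays. Where 15.5% of all genes were higher and 12.4% lower, 5 of its genes were higher and 1 lower. Some of these, such as Emcn and Tie1, are also known from HSCs. The junction gene Cdh5 was at 6.34, 5.05, 6.67 and 5.52 on HSC-enriched replicates 1 to 4. On Lin+ replicates 1 to 4 it was at 5.90, 6.26, 6.57 and 6.26. The sinusoidal gene Stab2 was at 5.78, 4.51, 5.70 and 4.96 on the HSC-enriched arrays and at 4.56, 4.86, 4.79 and 5.19 on the Lin+ arrays. Among HSC-enriched arrays both were highest on replicates 1 and 3. For both genes the groups overlapped and the difference did not pass (limma adjusted p = 0.5 and 0.37). Cdh5 and Stab2 are named after their values were seen. In all, 5 of the 11 genes had their highest HSC-enriched values on replicates 1 and 3 and 6 did not, Robo4, Egfl7, Ramp2, Tie1 and Emcn among them. The share was 45.5% in the endothelial list and 16.8% over all genes. It was 3 of 7 (42.9%) in the eosinophil, basophil and mast cell list and 2 of 5 (40%) in the B cell list. In the pericyte, smooth muscle and stroma list it was 28.6%, in the monocyte and macrophage list 11.1% and in the megakaryocyte and platelet list 7.14%. No gene of the HSC, sorting antigen, neutrophil and erythroid lists had the pattern. These shares were not tested against each other. Of the 5 endothelial genes with the pattern, Cldn5 was under the background guide on all 4 HSC-enriched arrays. So were Epx and Ms4a2 of the eosinophil, basophil and mast cell list. Gucy1a1, Gucy1b1 and Pde2a were also highest on replicates 1 and 3. Prkg1 was highest on replicates 1 and 2. Whether endothelial RNA had a part in the levels of Gucy1b1 on HSC-enriched arrays was not tested.

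**Figure D3:**
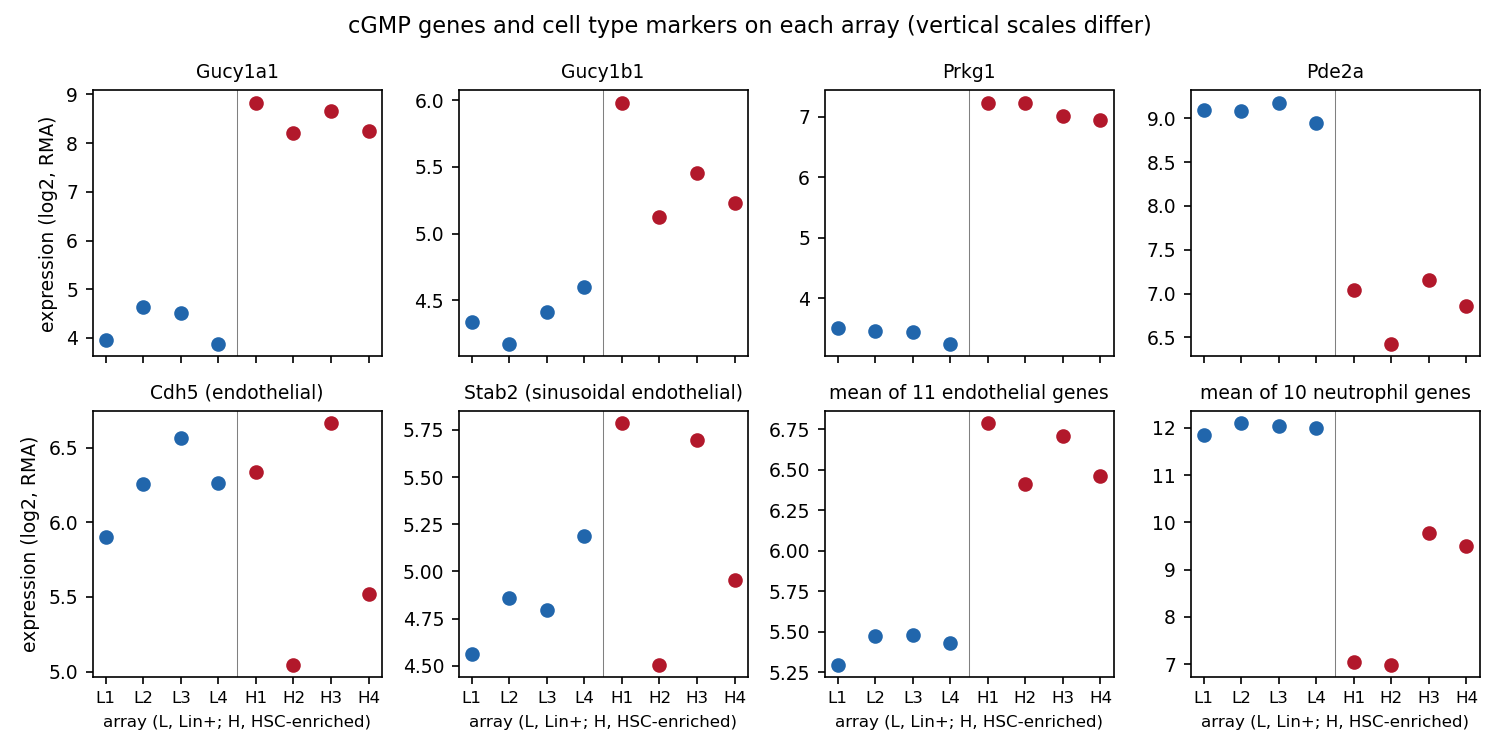
Expression (log2, vertical axes with scales of their own) of Gucy1a1, Gucy1b1, Prkg1, Pde2a, Cdh5 and Stab2 and the mean of the endothelial and neutrophil lists, on Lin+ replicates 1 to 4 (L1 to L4, blue) and HSC-enriched replicates 1 to 4 (H1 to H4, red). Among the red points, Cdh5 and Stab2 are highest on H1 and H3, where Gucy1b1 is at 5.98 and 5.46. Gucy1a1 and Pde2a are also highest there, and 6 of the 11 endothelial genes are not. The red and blue points overlap for Cdh5 and Stab2. The neutrophil mean is highest among the red points on H3 and H4.

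Pericytes, smooth muscle cells and platelets are known for high soluble guanylate cyclase. Over all genes 15.5% were higher and 12.4% lower, and the shares in the lists below were not tested against these. The pericyte, smooth muscle and stroma list (14 genes) averaged 4.91 to 4.95 on HSC-enriched and 4.91 to 5.10 on Lin+ arrays, with 2 genes higher and 2 lower. The higher ones were the pericyte genes Pdgfrb (0.40, limma adjusted p = 0.038) and Abcc9 (0.54, limma adjusted p = 0.027), and the lower ones Acta2 (-0.53, limma adjusted p = 0.021) and Cxcl12 (-0.53, limma adjusted p = 0.021). Acta2, Tagln, Cspg4 and Cxcl12 were above the background guide on all 8 arrays, and 5 genes, Pdgfrb and Rgs5 among them, on none. Among HSC-enriched arrays 4 of the 14 genes (28.6%), Pdgfrb and Abcc9 included, were highest on replicates 1 and 3, where 16.8% of all genes were. The megakaryocyte and platelet list (14 genes) averaged 6.41 to 6.73 on HSC-enriched and 5.53 to 5.88 on Lin+ arrays, with 8 genes higher and 0 lower. Vwf and Pf4 were at 7.73 and 8.49, 7.87 and 9.54, 7.40 and 8.59, and 7.07 and 9.11 on HSC-enriched replicates 1 to 4. On Lin+ replicates 1 to 4 they were at 5.55 and 7.10, 5.32 and 7.99, 5.46 and 7.31, and 5.38 and 7.82. The other genes of the list did not pass: Ppbp (-0.02), Tubb1 (-0.02), Gp6 (-0.08), Clec1b (-0.33), Itgb3 (-0.30) and Gp1bb (0.27). Gp6, Tubb1 and Clec1b were under the background guide on all 8 arrays. The part of either list in the levels of Gucy1a1 and Prkg1 was not tested. The HSC markers (10 genes) averaged 8.57 to 8.71 on HSC-enriched arrays and 5.21 to 5.33 on Lin+ arrays, all 10 higher, and the sorting antigens Kit, Eng and Slamf1 were higher and Cd48 lower, which is no independent result.

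The genes whose values most resembled those of Gucy1a1 over all 8 arrays were Timp3, Maged1, Mink1, Eya2 and Smarca2 (Pearson r = 0.996, 0.996, 0.995, 0.994 and 0.994). They shared its high level on every HSC-enriched array, with differences from 0.79 (Mink1) to 3.20 (Eya2). For Gucy1b1 the nearest were Jcad, Epas1, Pex11a, Sesn1 and Elmo3 (r = 0.989, 0.989, 0.984, 0.983 and 0.980). Each of these had its highest value on HSC-enriched replicate 1, as Gucy1b1 did, with differences from 0.38 (Epas1) to 1.37 (Pex11a). Epas1 was above the background guide on that array only. Gucy1a1 itself correlated with Prkg1 at 0.991, with Gucy1b1 at 0.909 and with Pde2a at -0.958. These values describe 8 arrays that fall into 2 groups and share the normalization, so most of each comes from the difference between the groups.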

How the data were processed

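The authors deposited log2 values of 24973 probe sets on 8 Affymetrix MouseGene ST arrays, and the log2 scale was read from the values (1.66 to 13.1). Per the submitters' processing notes RMA and Partek were used. Per the labels' protocols RNA was amplified with the Ovation Pico system, and array versions 1.0st and 2.0st are named without saying which sample had which. Array medians were 5.22 to 5.33. Probe sets were named by Entrez gene ID through the platform annotation and RefSeq (24015 with 1 symbol, 958 unnamed here), and the brightest probe set stood for a gene.

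Differences are HSC-enriched minus Lin+ means, fitted with limma 3.58.1 (R 4.3.3, lmFit and eBayes, no covariates) and adjusted by Benjamini-Hochberg. The script was tested on simulated data. No filter was applied. The labels give no batch. The 9 genes, the lists and the alternatives were chosen with earlier results of these data known, and the 6 motifs after the values were seen. From each pathway list, at most 3 passing genes per direction were named by size of difference, plus the 2 brightest others. Also named are the 5 genes most correlated with Gucy1a1 and with Gucy1b1, leaving out predicted loci. Some listed genes, Ly6a and Itpr1 among them, were not analysed here. Figures were drawn with matplotlib 3.10.9.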

Additional observations from a re-analysis of the deposited data

Results flagged for a closer look

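In 6 of the 98 groups of 4 arrays examined (the 9 cGMP genes, the pathway genes named above and the genes most like Gucy1a1 and Gucy1b1, in each population, but not the marker genes), 1 array stood far from the other 3. Chance gives about 1 in 20. Among the 9 cGMP genes this was Nos1 on Lin+ replicate 1, at 5.17 against 4.89 to 4.91 on the others. Of the pathway genes, Trpc6 was at 5.00 on Lin+ replicate 4 (others 4.53 to 4.61) and Pde7b at 6.83 on Lin+ replicate 3 (6.06 to 6.10). Prkar1a was at 7.78 on Lin+ replicate 4 (8.11 to 8.17), and Pde6h was at 5.64 on HSC-enriched replicate 1 (6.20 to 6.27). Eya2, which resembled Gucy1a1, was at 9.02 on HSC-enriched replicate 1 (8.56 to 8.63).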

How the results depend on the processing

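Over the alternatives run, 16 to 22 pathway genes were higher and 7 to 11 lower, against 20 and 10. The 2 filters on low values kept only 67 and 57 of the 96 pathway genes, and under both 22 were higher and 9 lower. Leaving out single arrays gave 18 to 20 higher and 7 to 11 lower pathway genes. The median difference of the 9 cGMP genes was then 0.30 to 0.50. With the replicate number as a block, 19 pathway genes were higher and 8 lower, and the median of the 9 cGMP genes was 0.40. Deviations of same-numbered arrays correlated at -0.152 to 0.059, and those of arrays with different numbers at -0.107 to 0.167. These ranges overlap, so they cannot tell whether the numbers pair the arrays. Without HSC-enriched replicates 3 and 4 the counts were 16 and 7. Nppc, which did not pass, changed sign without Lin+ replicate 4 or HSC-enriched replicates 3 and 4 (-0.061), as did, without passing, Hspb6 without Lin+ replicate 1 and Nos3 without Lin+ replicate 1 or HSC-enriched replicate 2. Over single arrays left out, Nppc ranged from -0.041 to 0.15, Hspb6 from -0.025 to 0.18 and Nos3 from -0.18 to 0.0062. No pathway gene named that passed changed sign, and calls came or went for Rgs2, Ddah2, Pde3b, Pde7b, Pde6h, Pde6d and Nostrin, each given above. The stricter of 2 filters on low values kept 4 and the other 7 of the 9 genes, so no median over them is given there. With 4 arrays a group and no detection calls, differences near the background guide are the least certain.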
